A study of Mus musculus with 11 samples.

Results

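Chemokines and chemokine receptors were examined in injured and uninjured pieces of mouse hearts by RNA sequencing. The members were all genes of the table whose symbol begins with Ccl, Ccr, Cxcl or Cxcr followed by a digit, with Cx3cl1, Cx3cr1 and Xcr1 added. This gave 42 of 15274 genes, 28 ligands and 14 receptors. The animals were C3H/HeJ (C3H) and C57BL/6J (B6) mice of 8 weeks, 6 in all, and the library titles carry D7, read here as day 7. Libraries fell into 4 groups: C3H injured (n = 2), C3H uninjured (n = 3), B6 injured (n = 3) and B6 uninjured (n = 3). Both regions of a heart bear the same mouse number, so 5 animals gave an injured and an uninjured library and 1 C3H animal an uninjured one only. The labels give no transgene and no drug. The sources used here state neither how the hearts were injured nor how each region was cut out. Libraries are named by group and animal number.

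Chemokines are small secreted proteins that guide white blood cells along gradients to a site of damage. They are sorted into CC, CXC and CX3C ligands by the spacing of their first cysteines, and act through receptors that span the membrane repeatedly and couple to Gi proteins. In heart injury, Ccl2 and its receptor Ccr2 are known for drawing monocytes from the blood, the Cxcr2 ligands for drawing neutrophils, Cxcl9 and Cxcl10 for drawing Cxcr3-bearing T cells, and Cxcl12 with Cxcr4 for holding and homing progenitors and leukocytes. Cx3cl1 (fractalkine) and Cxcl16 are made as membrane-bound ligands and bind Cx3cr1 and Cxcr6.

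Libraries held 9699985 to 22138459 reads assigned to genes, of which 5957 to 36425 fell on the 42 members. Changes are log2 differences of normalised counts (+ 1) from a linear model (limma) over all 11 libraries, with their standard error (SE) and a p adjusted over the 14751 genes tested, and a call is an adjusted p under 0.05. Of the members 39 were tested, and Ccr1l1, Cxcl11 and Cxcr1 were too low. All 5 C3H libraries had high Xist (1839.8 to 8478) and B6 libraries 3.14 to 12.2, while Ddx3y was at 0.888 to 3.46 in C3H and 1429 to 2221 in B6, so strain cannot be told apart from sex. The first principal component of all genes (38.6% of the variance) set the C3H injured libraries apart from the other 9. Heart tissue was checked by 12 cardiomyocyte markers, all detected in every library. In whole tissue, fewer cells of a type and less RNA per cell cannot be told apart.

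RefSeq promoters (build GRCm38.p6, not the build of the counts) were at hand for 29 of the 42 members, in 32 windows. The 250 bases before the start are shown for Cx3cr1, Ccr1 and Cxcl14, which are 3 of the 5 members whose injury effect differed between the strains, and for the neighbours Cxcl10 and Cxcl9, of which the first rose with injury in C3H and the second overlapped between regions. Capitals mark matches on either strand to 5 motifs: the kappaB frame (GGG, any 5 bases, CC), the interferon response core (GAAA, any 2 bases, GAAA), the STAT site TTCNNNGAA, the AP-1 site TGANTCA and the PU.1 core GAGGAA, where overlapping matches run together. Cx3cr1 lies at chr9:120068297-120068546, Ccr1 at chr9:123968693-123968942, Cxcl14 at chr13:56296552-56296801, Cxcl10 at chr5:92348890-92349139 and Cxcl9 at chr5:92328080-92328329, all on the minus strand and written 5′ to 3′.
Cx3cr1: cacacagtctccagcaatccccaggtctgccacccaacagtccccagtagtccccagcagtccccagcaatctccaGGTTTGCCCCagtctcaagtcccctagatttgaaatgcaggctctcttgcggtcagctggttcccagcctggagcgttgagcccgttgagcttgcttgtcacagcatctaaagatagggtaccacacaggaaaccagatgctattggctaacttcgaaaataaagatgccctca
Ccr1: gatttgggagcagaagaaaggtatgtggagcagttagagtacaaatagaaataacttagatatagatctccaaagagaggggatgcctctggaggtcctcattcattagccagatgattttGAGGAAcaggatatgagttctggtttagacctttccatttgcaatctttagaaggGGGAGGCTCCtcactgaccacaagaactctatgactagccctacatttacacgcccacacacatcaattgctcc
Cxcl14: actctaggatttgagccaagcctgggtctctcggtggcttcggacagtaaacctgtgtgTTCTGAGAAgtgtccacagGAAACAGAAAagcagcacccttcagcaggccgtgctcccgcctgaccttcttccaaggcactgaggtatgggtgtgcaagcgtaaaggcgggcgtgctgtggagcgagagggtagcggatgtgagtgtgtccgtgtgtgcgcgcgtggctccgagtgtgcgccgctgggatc
Cxcl10: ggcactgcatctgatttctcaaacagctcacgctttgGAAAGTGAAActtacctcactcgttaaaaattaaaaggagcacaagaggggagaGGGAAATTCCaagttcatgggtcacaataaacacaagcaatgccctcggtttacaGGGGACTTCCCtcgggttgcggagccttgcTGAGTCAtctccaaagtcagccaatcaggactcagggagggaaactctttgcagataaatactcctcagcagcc
Cxcl9: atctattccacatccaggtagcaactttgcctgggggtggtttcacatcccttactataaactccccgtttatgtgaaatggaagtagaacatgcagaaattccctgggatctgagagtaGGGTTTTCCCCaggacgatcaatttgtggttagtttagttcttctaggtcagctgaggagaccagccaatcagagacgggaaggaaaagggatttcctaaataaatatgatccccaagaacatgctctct
Cxcl10 held the interferon core, the kappaB frame at 2 places and an AP-1 site, and Cxcl9 the kappaB frame at 1 place. Cxcl14 held the interferon core and a STAT site, Ccr1 a kappaB frame and a PU.1 core, and Cx3cr1 a kappaB frame. The kappaB frame was in 18 of 32 member windows (56.2%) and in 45.8% of all 32851 promoters. The interferon core was in 3 (9.38%, against 2.98%), the STAT site in 3 (9.38%, against 7.02%), the AP-1 site in 3 (9.38%, against 6.75%) and the PU.1 core in 10 (31.2%, against 23.3%). More than 1 window was at hand for 2 members. For Ccl27a 2 of the windows overlap and share a kappaB frame and a PU.1 core, which are counted in both. A match describes letters only.

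The first comparison asked which members differed between injured and uninjured regions of C3H hearts. Of 39 members tested, 16 rose and 1 fell, against 15.3% of all genes tested that rose and 15.4% that fell. The median change was 1.46 over the members and 0.01 over all genes. Receptors rose in 7 of 12 and ligands in 9 of 27. The groups did not overlap for 22 members that were higher in injured regions, against 29.6% of all genes, and for 2 that were lower, against 29.7%. Calls lost without C3H injured library 1, which left a lone library in its group, are named with their genes below. In every fit with the animal as a fixed block, C3H uninjured library 3 takes no part and 3 residual degrees of freedom remain.

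Receptors of monocytes and macrophages rose together. Cx3cr1, the fractalkine receptor of monocytes and tissue macrophages, had 1511 and 1059 normalised counts in C3H injured libraries and 68.3, 41.9 and 79.9 in C3H uninjured ones. Every injured library exceeded every uninjured one by far, and the log2 change was 4.35 (SE 0.38, adjusted p = 3.04e-05). Ccr2, the Ccl2 receptor of inflammatory monocytes, had 1029.9 and 850.1 in C3H injured and 133, 169.6 and 107 in C3H uninjured libraries, a change of 2.79 (SE 0.32, adjusted p = 0.000143). For both receptors the injured libraries were close together and above all uninjured ones. Ccr1, a receptor of Ccl3, Ccl6 and Ccl9 on myeloid cells, had 347 and 613 against 72.3, 120.4 and 70.1, a change of 2.43 (SE 0.35, adjusted p = 0.000563). Cxcr4, the Cxcl12 receptor, had 1021 and 1348 in C3H injured and 306, 164 and 352 in C3H uninjured libraries, a change of 2.17 (SE 0.31, adjusted p = 0.000526). These 4 receptors passed in each alternative analysis and without each library in turn.

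Receptors of activated T cells also rose, with 36 to 81 reads in an injured library. Cxcr3, the receptor of Cxcl9 and Cxcl10, had 52.7 and 57.2 normalised counts in C3H injured and 9.90, 5.23 and 7.99 in C3H uninjured libraries, a change of 2.72 (SE 0.63, adjusted p = 0.00744). Cxcr6, the Cxcl16 receptor, had 56.2 and 25.4 against 10.9, 11.5 and 2.66, a change of 2.25 (SE 0.69, adjusted p = 0.0275). The injured libraries lay above the uninjured ones for both genes. The Cxcr3 call was lost without C3H injured 2 (adjusted p = 0.0662). That of Cxcr6 was lost without C3H injured 1 (adjusted p = 0.210), 2 (0.0602) or C3H uninjured 3 (0.0887), with the animal as a fixed block (adjusted p = 0.0533), with only the groups compared (0.0578) and with quantile normalization (0.0534). The other 5 receptors tested did not pass: Ccr7 of dendritic cells and naive T cells was at 1.36, Cxcr2 of neutrophils at 0.97, Ccr10 at 0.87, Cxcr5 of B cells at 0.14 and Xcr1 of cross-presenting dendritic cells at 0.10 (adjusted p = 0.149 to 0.923).

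**Figure D1:**
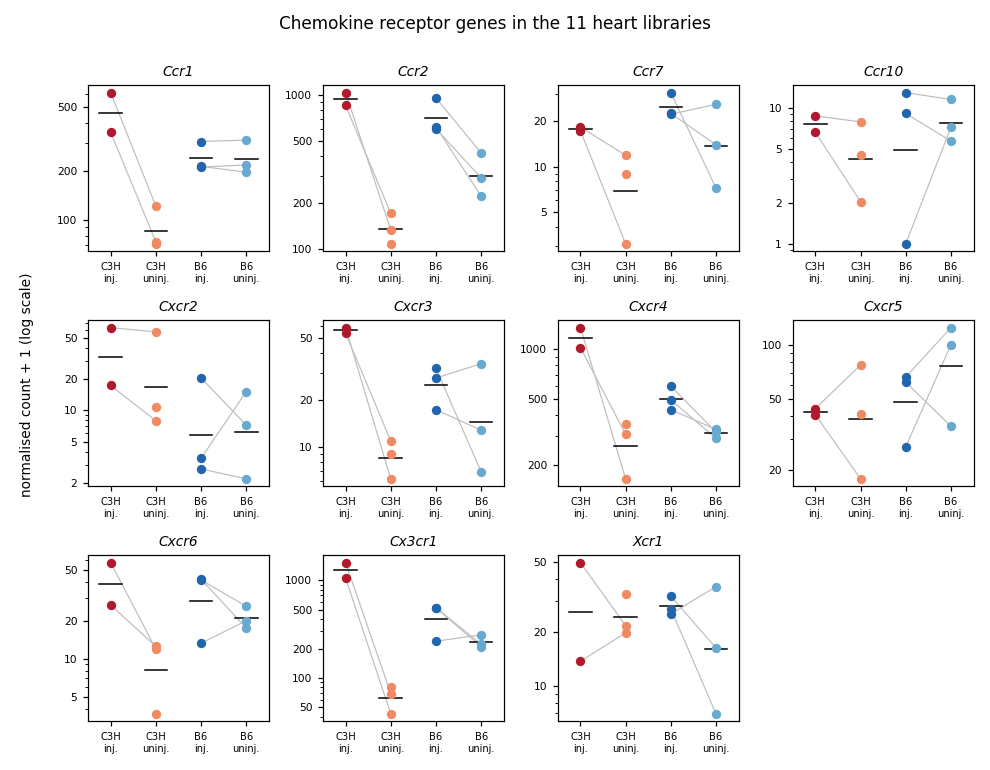
Normalised count + 1 (log axis) of 11 receptor genes in each library, by group. Points are libraries, bars are means on the log scale, and grey lines join both regions of an animal. Cx3cr1, Ccr2, Ccr1 and Cxcr4 are higher in both C3H injured libraries than in any C3H uninjured library.

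Among CC ligands, 5 of 16 rose in C3H and 1 fell. Ccl3, the macrophage inflammatory protein MIP-1 alpha, had 106 and 91.9 normalised counts in C3H injured and 3.96, 2.09 and 9.77 in C3H uninjured libraries, a change of 4.19 (SE 0.72, adjusted p = 0.00160). Ccl4 (MIP-1 beta), which like Ccl3 draws macrophages and T cells, had 57.9 and 19.8 against 0.990, 2.09 and 3.55, a change of 3.53 (SE 0.72, adjusted p = 0.00365). Ccl9, a mouse ligand of Ccr1, had 1214 and 2334 against 313, 872 and 226, a change of 2.09 (SE 0.51, adjusted p = 0.00945). All 3 of these ligands were higher in both injured libraries. Ccl5 (RANTES) was at 1.96 (SE 0.70, adjusted p = 0.0517) and Ccl6 at 1.17 (SE 0.52, adjusted p = 0.105), with Ccl6 overlapping between groups since C3H uninjured library 2 had 1682. With the animal as a fixed block Ccl5 passed (adjusted p = 0.00416), and without C3H uninjured library 2 Ccl6 was at 1.83 (adjusted p = 0.00346). The Ccl4 call was lost without C3H injured 1 (adjusted p = 0.0521) and that of Ccl9 without C3H injured 2 (adjusted p = 0.116).

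Of the 4 ligands grouped here with Ccr2, Ccl2 passed and Ccl7, Ccl8 and Ccl12 did not. Ccl2 (MCP-1) had 512 and 285 normalised counts in C3H injured and 90.1, 63.9 and 84.4 in C3H uninjured libraries, a change of 2.27 (SE 0.63, adjusted p = 0.0179). Its neighbour Ccl7 (MCP-3) had 234 and 115 against 63.4, 58.6 and 55.9, a change of 1.46 (SE 0.67, adjusted p = 0.118). Both genes were higher in every injured than in any uninjured C3H library, and Ccl7 passed with the animal as a fixed block (adjusted p = 0.00449). Ccl8 (MCP-2) was at 0.60 and Ccl12, the mouse MCP-5, at 0.47 (adjusted p = 0.413 and 0.453). The Ccl2 call was lost without C3H injured 1 (adjusted p = 0.136) or 2 (0.0519). Ccl11 (eotaxin), which draws eosinophils through Ccr3 and stands between Ccl7 and Ccl12 in the genome, moved the other way. It fell to 19.9 and 28.97 in C3H injured libraries, against 68.3, 125 and 96.8 in C3H uninjured ones, a change of -1.92 (SE 0.46, adjusted p = 0.00900). This call was lost without C3H injured 1 (adjusted p = 0.0749). Ccl17 (TARC), a Ccr4 ligand of dendritic cells, had 20.8 and 4.95 against 0.990, 2.09 and 0.888, that is 24 and 7 reads against 1, 2 and 1. Its change was 2.33 (SE 0.75, adjusted p = 0.0342), and it was lost without C3H injured 1 (adjusted p = 0.319), C3H uninjured 1 (0.0625) or 3 (0.0835), with the animal as a fixed block (adjusted p = 0.0650), with only the groups compared (0.0649), with a pseudocount of 5 (a change of 1.34, adjusted p = 0.0710) and with quantile normalization (0.114). Without C3H injured library 1 the Ccl17 change was 1.39. Ccl22, the other Ccr4 ligand, had 22.5 and 3.53 against 5.94, 0 and 8.88, and passed with the fixed block only (adjusted p = 0.0288, against 0.318 without it).

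Among CXC ligands 3 of 10 rose in C3H, and so did the CX3C ligand. Cxcl10 (IP-10), an interferon-inducible Cxcr3 ligand, had 208 and 49.5 normalised counts in C3H injured and 5.94, 6.28 and 15.98 in C3H uninjured libraries, a change of 3.43 (SE 0.82, adjusted p = 0.00871). Cxcl9 (MIG), its neighbour, overlapped between groups with 91.7 and 16.96 against 10.9, 4.19 and 72.8, a change of 1.30 (SE 0.91, adjusted p = 0.294). Cxcl9 passed with the animal as a fixed block (2.38, adjusted p = 0.00113), a fit in which C3H uninjured library 3 takes no part. Cxcl16, the membrane-bound ligand of Cxcr6 and a scavenger receptor for oxidised lipoprotein, had 2366 and 3202 against 387, 479 and 485, a change of 2.62 (SE 0.27, adjusted p = 7.05e-05). The Cxcl16 libraries were tight within each group. Cxcl14, a chemokine of epithelia and fibroblasts whose receptor is unsettled, had 2239 and 3159 against 334, 902 and 445, a change of 2.38 (SE 0.35, adjusted p = 0.000612). Cx3cl1, the Cx3cr1 ligand, had 885 and 466 against 303, 239 and 291, a change of 1.21 (SE 0.36, adjusted p = 0.0245). Thus all 4 genes of the 2 membrane-bound ligands and their receptors rose. The Cxcl10 call was lost without C3H injured 1 (adjusted p = 0.106). That of Cx3cl1 was lost without C3H injured 1 (adjusted p = 0.244), C3H uninjured 2 (0.0626) or 3 (0.0524), with a change of 0.75 without the first of these.

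Cxcl12, the ligand of Cxcr4, had 7661 and 6782 normalised counts in C3H injured and 7313, 3170.0 and 4933 in C3H uninjured libraries, a change of 0.57 (SE 0.33, adjusted p = 0.206). The groups overlapped, and Cxcl12 passed with quantile normalization (1.03, adjusted p = 0.0329) and without C3H uninjured library 1 (0.87, adjusted p = 0.0492). Its scavenging receptor Ackr3, which lies outside the name rule, fell to 924 and 1112 in C3H injured libraries, against 1301, 2821 and 2141 in C3H uninjured ones (-0.97, SE 0.31, adjusted p = 0.0307). Cxcr4, the other receptor of this ligand, rose.

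**Figure D2:**
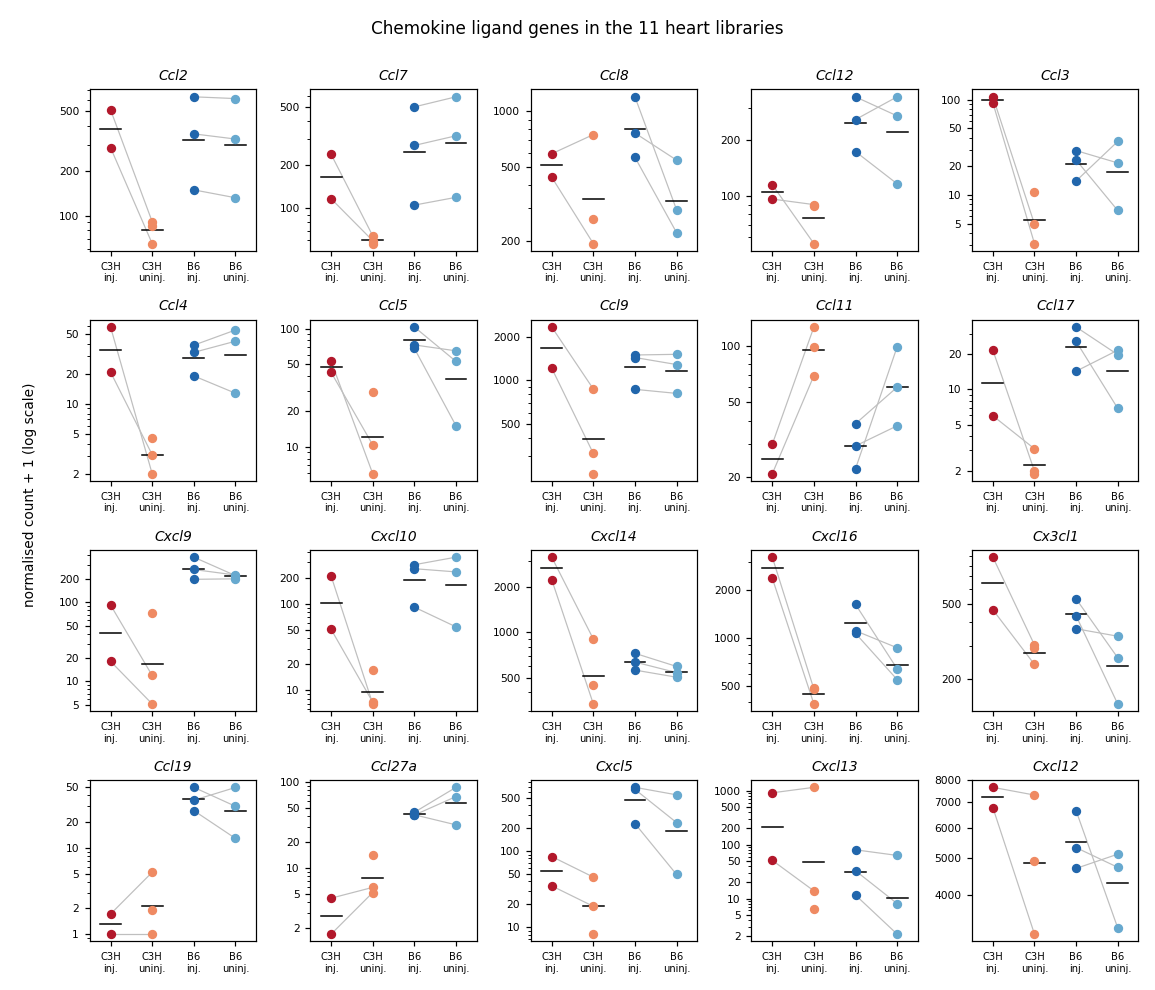
Normalised count + 1 (log axis) of 20 ligand genes in each library, by group, with means on the log scale as bars and grey lines between both regions of an animal. Ccl3, Ccl4, Cxcl10 and Cxcl16 separate C3H injured from C3H uninjured libraries, Ccl11 does so downwards, and Ccl19 and Ccl27a lie below all B6 libraries in every C3H library.

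The neutrophil attractants and their receptors gave no call in C3H. Cxcl1 (KC) had 71.8 and 72.8 normalised counts in C3H injured and 26.7, 300.5 and 47.9 in C3H uninjured libraries. Cxcr2 had 16.4 and 62.2 against 6.93, 56.5 and 9.77, and Cxcl13, the B-cell attractant that binds Cxcr5, had 50.2 and 918 against 12.9, 1161 and 5.33 (2.21, SE 2.01, adjusted p = 0.427). In each of these genes the high values belonged to animal 2, and for Cxcl13 and Cxcr2 to both of its regions. The summed neutrophil markers (9 of 12 listed genes in the table) moved with them, at 356 and 1637 in C3H injured and 74.3, 1989 and 94.1 in C3H uninjured libraries, and their part in these values was not tested. Cxcl5 (LIX) was at 1.51, Cxcl2 (MIP-2) at 0.77 and Cxcl1 at -0.02 (adjusted p = 0.236, 0.427 and 0.989). Cxcl3 had 22 and 1 reads in C3H injured and 0 in C3H uninjured libraries, at least 9.22-fold higher against a floor of 3 reads over the group. Cxcr1, below the filter, had 6 and 32 reads in C3H injured and 0 in C3H uninjured libraries, at least 15.2-fold higher against the same floor. Cxcl3 passed in DESeq2 only (adjusted p = 0.0138) and Cxcr1 without the filter (adjusted p = 0.0246). Here as below, bounds and counting intervals cover counting error only.

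Members of the remaining axes stayed low or did not pass in C3H. Ccl24, a Ccr3 ligand, was at -0.36, Ccl25, the Ccr9 ligand of thymus and gut, at -0.62, and Ccl27a, a skin Ccr10 ligand, at -1.47 (adjusted p = 0.681, 0.457 and 0.0977). Ccl27a passed with quantile normalization (-2.23, adjusted p = 0.0194). Ccl19, a Ccr7 ligand of lymphoid tissue, had 0 and 1 reads in C3H injured and 0, 4 and 1 in C3H uninjured libraries. Ccr1l1, a Ccr1-like gene, had 0 and 4 reads against 0 in all 3, and Cxcl11 14 and 4 against 1, 1 and 10. The difference of these was not detectable at this depth.

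The same question was asked of B6 hearts, where no member passed in limma. At an unadjusted p under 0.05 there were 8 members of 39, 20.5%, against 13.4% of all genes. Over all genes 0.0136% rose and 0% fell with adjustment. The edgeR test called no member and 0.0136% of all genes as higher, and DESeq2 called Ccr2 (1.23, adjusted p = 0.0279) and 0.21% of all genes as higher. The median change was 0.35 over the members and 0.01 over all genes, and 7 members were higher in all injured than in any uninjured B6 library, against 9.83% of all genes. Estimates were positive for 31 of 39 members and lay between -1.05 (Ccl11) and 1.59 (Cxcl13).

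In B6, Ccr2 had 600.1, 951 and 619.8 normalised counts in injured and 289, 419 and 219 in uninjured libraries, a change of 1.24 (SE 0.28, adjusted p = 0.364). Cxcl16 had 1111, 1623 and 1070.2 in B6 injured and 869.6, 643 and 550.3 in B6 uninjured libraries, a change of 0.88 (SE 0.24, adjusted p = 0.364). Ccl8 had 763, 1196 and 565 against 545, 294 and 222, a change of 1.28 (SE 0.48, adjusted p = 0.364). The groups of these 3 genes did not overlap, nor did those of Cxcr4, Cx3cl1 and Ccl5. Cxcr4 was at 0.69 (SE 0.28, adjusted p = 0.364), Cx3cl1 at 0.90 (SE 0.32, adjusted p = 0.364) and Ccl5 at 1.10 (SE 0.63, adjusted p = 0.442). Cx3cr1 had 236, 525 and 517 against 276, 219.8 and 209, a change of 0.78 (SE 0.34, adjusted p = 0.368), and overlapped. Ccr1 had 214, 305 and 211 against 196, 311 and 218, a change of 0.02 with a 95% confidence interval of -0.66 to 0.70. Its libraries paired closely by animal and showed no common direction. Ccl11 had 37.5, 21.2 and 28.4 against 59.2, 97.5 and 36.5, a change of -1.05 (SE 0.41, adjusted p = 0.364), lower in 3 of 3 animals.

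For Ccl2, Ccl7 and Cxcl10 the B6 libraries were ordered by animal, in the same way in both regions. Ccl2 had 626, 353 and 148 normalised counts in B6 injured libraries 1 to 3 and 609, 326 and 131 in the uninjured libraries of the same animals. Ccl7 had 499.8, 270.2 and 104 against 587, 315 and 118, and Cxcl10 281, 253 and 90.3 against 344, 232 and 53.03. Animal 1 was highest and animal 3 lowest for each gene in both regions. The within-animal log2 changes of Ccl2 were 0.04, 0.12 and 0.18 in B6, beside 2.49 and 2.14 in C3H. For Ccl7 they were -0.23, -0.22 and -0.18 in B6, beside 1.87 and 0.96 in C3H.

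**Figure D3:**
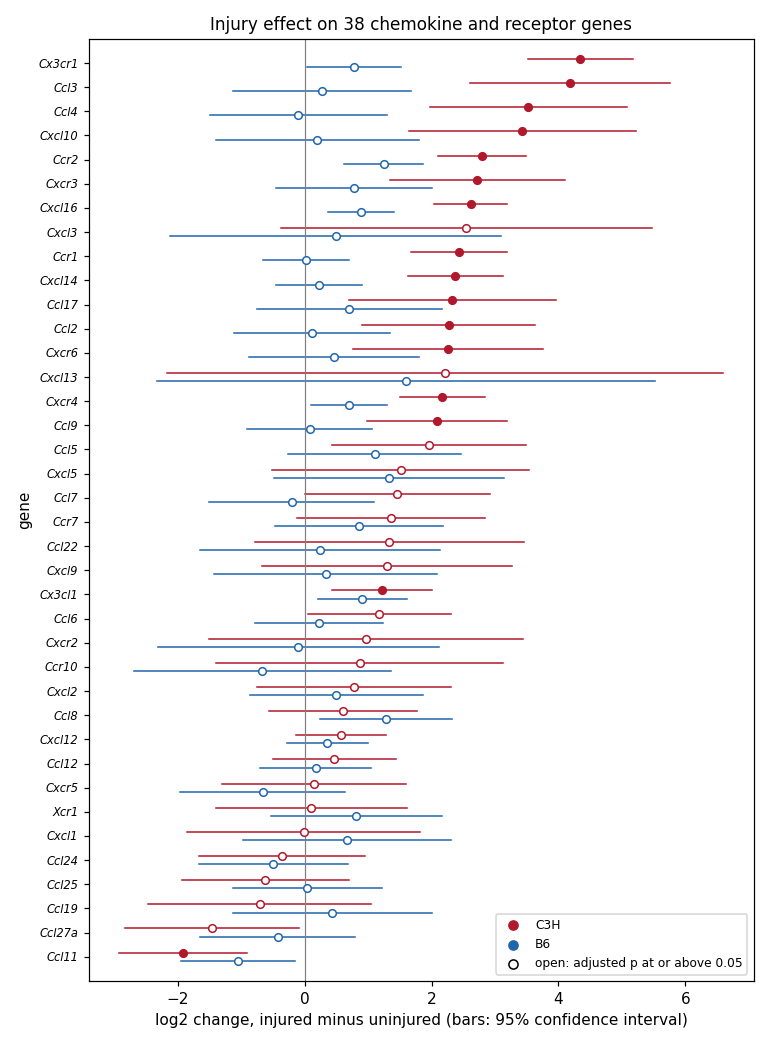
Log2 change between injured and uninjured regions for 38 of the tested members, C3H above B6 in each row, ordered by the C3H change. Bars are 95% confidence intervals and filled points have an adjusted p under 0.05. In C3H 16 points are filled and in B6 none. The C3H values of Cxcl3 and Ccl19 rest on 0 uninjured reads and 1 injured read, so that neither is a measured fold.

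The difference of the injury effects, C3H minus B6, was tested as an interaction term. It passed for 5 members, each greater in C3H, against 1.5% of all genes greater and 0.0678% smaller. Among these were the receptors Cx3cr1 at 3.57 (SE 0.51, adjusted p = 0.00589) and Ccr1 at 2.41 (SE 0.47, adjusted p = 0.0262). The ligands were Cxcl14 at 2.15 (SE 0.46, adjusted p = 0.0406) and Cxcl16 at 1.73 (SE 0.36, adjusted p = 0.0318). Within animals, the log2 change of Cx3cr1 was 4.45 and 4.63 in C3H, beside -0.22, 1.25 and 1.31 in B6. That of Ccr1 was 2.25 and 2.34 in C3H, beside 0.12, -0.03 and -0.04 in B6.

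With the animal as a fixed block 13 members passed, each greater in C3H (2.96% of all genes), and with the animal as a random block 12 (3.94%). The fixed block has 3 residual degrees of freedom, and its C3H effect rests only on the animals with both regions. The fixed block added Ccl2 (2.21, adjusted p = 0.00487), Ccl9 (1.61, 0.0111), Cxcl10 (3.65, 0.0111), Ccl3 (4.40, 0.0258), Ccl4 (3.92, 0.0308), Cxcr4 (1.69, 0.0412), Ccr2 (1.39, 0.0425) and Ccl7 (1.63, 0.0474). Without the block adjusted p for these was 0.0737 for Ccl3, 0.0947 for Ccl4, 0.112 for Ccr2, 0.119 for Cxcr4, 0.195 for Ccl9, 0.196 for Cxcl10, 0.271 for Ccl2 and 0.435 for Ccl7. DESeq2 called 10 (3.68%) and edgeR 4 (1.49%), without Cxcl14 (adjusted p = 0.0629).

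The interaction depended on single libraries, over all genes as well as among members. With every library 231 of all genes passed. Without C3H injured library 2, which left a lone library in its group, every member call was lost and the fewest of all genes passed. With both C3H injured libraries kept, the count of members was 1 without B6 uninjured library 1, with 83 of all genes. It was 2 without C3H uninjured library 3 (110 of all genes), B6 injured library 1 (108) or 3 (107), or B6 uninjured library 2 (153). Without C3H uninjured library 1 or B6 uninjured library 3 the count over all genes rose to 272. The Cx3cr1 call was lost without C3H injured 2 (adjusted p = 0.0516). That of Ccr1 was lost without C3H injured 2 (adjusted p = 0.235), C3H uninjured 3 (0.0698), B6 injured 1 (0.0747), 3 (0.0703), B6 uninjured 1 (0.0574) or 2 (0.0580). The Cxcl16 call was lost without C3H injured 1 (adjusted p = 0.0515), 2 (0.268), C3H uninjured 1 (0.0552), 3 (0.0698), B6 injured 1 (0.0923), 3 (0.0841), B6 uninjured 1 (0.0877) or 2 (0.0615). The Cxcl14 call was lost without C3H injured 1 (adjusted p = 0.0633), 2 (0.300), C3H uninjured 3 (0.113), B6 injured 1 (0.108), 2 (0.0741), 3 (0.0905), B6 uninjured 1 (0.0953), 2 (0.0884) or 3 (0.0526). Estimates kept their sign in each of these fits.

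Uninjured regions were then compared between the strains. Members were lower in C3H in 8 of 39, against 1.79% of all genes that were lower and 1.32% that were higher, and 18 members did not overlap in this direction, against 9.27% of all genes. The median difference was -1.35 over the members and -0.01 over all genes. Cxcl10 had 5.94, 6.28 and 15.98 normalised counts in C3H uninjured and 344, 232 and 53.03 in B6 uninjured libraries, a difference of -4.10 (SE 0.73, adjusted p = 0.00989). Cxcl9 had 10.9, 4.19 and 72.8 against 221, 218 and 198, a difference of -3.68 (SE 0.81, adjusted p = 0.0301). Ccl4 had 0.990, 2.09 and 3.55 against 41.4, 53.9 and 11.8, a difference of -3.35 (SE 0.64, adjusted p = 0.0152). For all 3 ligands every C3H library was below every B6 library. The receptors Cx3cr1 (-1.91, SE 0.34, adjusted p = 0.00987) and Ccr1 (-1.47, SE 0.31, adjusted p = 0.0255) were lower as well. Their uninjured values are those given above, which also enter the injury effects, so these comparisons share libraries.

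Ccl19 and Ccl27a had few reads in any C3H library. Ccl19 had 0, 4.19 and 0.888 normalised counts in C3H uninjured and 48.5, 29.03 and 11.8 in B6 uninjured libraries, a difference of -3.64 (SE 0.72, adjusted p = 0.0174). Ccl27a had 4.95, 4.19 and 13.3 against 85.2, 66.4 and 30.6, a difference of -2.90 (SE 0.56, adjusted p = 0.0164). No C3H library reached a B6 one. Ccl27a has a similar copy, Ccl27b, which RefSeq also lists on chromosome 4, and the sources used here do not say how shared reads were counted, so the Ccl27a level is uncertain.

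The uninjured comparison depended on single uninjured libraries of both strains, over all genes as well as among members. With every library 458 of all genes passed. The count over all genes was 246 without C3H uninjured library 3, 296 without library 2 and 361 without library 1. Without B6 uninjured library 1 the count of members was 1, with 213 of all genes, and without B6 uninjured library 2 it was 2, with 233. Without B6 uninjured library 3 it was 16, with 788 of all genes. With only the groups compared it was 3 (191 of 14751 genes), and with DESeq2 16, against 3.67% of all genes. Calls were lost for Cxcl9 without C3H uninjured 1 (adjusted p = 0.0755), 2 (0.0834), B6 uninjured 1 (0.119) or 2 (0.0986) and in edgeR (0.0935), for Cxcl10 without B6 uninjured 1 (adjusted p = 0.0617) or 2 (0.0516), for Ccl4 without B6 uninjured 1 (adjusted p = 0.0785) or 2 (0.0690), for Ccr1 without C3H uninjured 1 (adjusted p = 0.0704), 3 (0.100), B6 uninjured 1 (0.0580) or 2 (0.107) and for Cx3cr1 without B6 uninjured 1 (adjusted p = 0.0580). Those of Ccl19 were lost without C3H uninjured 1 (adjusted p = 0.0522), 3 (0.0621), B6 uninjured 1 (0.0989) or 2 (0.0688) and those of Ccl27a without C3H uninjured 2 (adjusted p = 0.0569), B6 uninjured 1 (0.0883) or 2 (0.0687). With only the groups compared adjusted p was 0.0516 for Ccl27a, 0.0585 for Cxcl9, 0.0598 for Ccl4, 0.0735 for Ccl19 and 0.0745 for Ccr1. Among members that did not pass were Ccr2 (-1.15, SE 0.28, adjusted p = 0.0520), Ccl17 (-2.67, SE 0.67, adjusted p = 0.0547), Cxcl5 (-3.29, SE 0.83, adjusted p = 0.0566), Ccl12 (-1.54, SE 0.40, adjusted p = 0.0631) and Ccl7 (-2.22, SE 0.60, adjusted p = 0.0728). With the animal as a random block Cxcl5 (adjusted p = 0.0352), Ccl7 (0.0388) and Ccr2 (0.0442) passed.

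In injured regions 4 members were higher in C3H and 2 lower, against 3.72% and 3.34% of all genes. The median difference was -0.18 over the members and 0.01 over all genes. Cxcl14 had 2239 and 3159 normalised counts in C3H injured and 561, 725 and 634 in B6 injured libraries, a difference of 2.06 (SE 0.35, adjusted p = 0.00522). Cx3cr1 had 1511 and 1059 against 236, 525 and 517, a difference of 1.66 (SE 0.38, adjusted p = 0.0254). Cxcr4 (1.22, SE 0.31, adjusted p = 0.0360) and Cxcl16 (1.14, SE 0.27, adjusted p = 0.0260) were higher too. None of these 4 overlapped, but 24.9% of all genes did not overlap in this direction, against 20.5% of members. Ccl27a had 3.46 and 0.707 against 43.2, 40.1 and 40.4, a difference of -3.94 (SE 0.63, adjusted p = 0.00404). Ccl19 had 1 read over the C3H injured and 134 over the B6 injured libraries, a B6-to-C3H ratio of 94.1 (95% counting interval 16.6 to 3743), and its adjusted p was 0.00528.

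The level of Ccr2 in injured regions differed by 0.40 (95% confidence interval -0.29 to 1.10). Cxcl5 had 83.9 and 33.9 in C3H injured and 689, 648 and 229.5 in B6 injured libraries (-3.11, SE 0.93, adjusted p = 0.0674). Cxcl9 had 91.7 and 16.96 against 260.1, 373 and 195 (-2.71, SE 0.91, adjusted p = 0.0922). Ccl3 was at 2.23 (SE 0.72, adjusted p = 0.0856). All 3 were separated between the strains without passing. Separation with C3H higher was seen for 20.5% of members and 24.9% of all genes, and with C3H lower for 23.1% and 24.2%. Cxcl5, Cxcl9 and Ccl3 passed with only the groups compared and in DESeq2, where the counts were 10 each. With only the groups compared 1562 of 14751 genes were called. Cxcl5 also passed with the animal as a random block (-3.35, adjusted p = 0.0351). DESeq2 called 6.6% of all genes higher and 7.05% lower.

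In injured regions 3 members passed without B6 injured library 1. In the same fit 334 of all genes passed, beside 1042 with every library. Without C3H injured library 2 adjusted p was 0.0560 for Ccl19, 0.0925 for Ccl27a and 0.118 for Cxcl14. Calls were lost for Cx3cr1 without C3H injured 1 (adjusted p = 0.139), 2 (0.150) or B6 injured 1 (0.0808), for Cxcl16 without C3H injured 2 (adjusted p = 0.359), B6 injured 1 (0.101) or 3 (0.0606) and for Cxcr4 without C3H injured 1 (adjusted p = 0.0734), 2 (0.395), B6 injured 1 (0.130), 2 (0.0657), 3 (0.0647) or B6 uninjured 1 (0.0532).

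**Figure D4:**
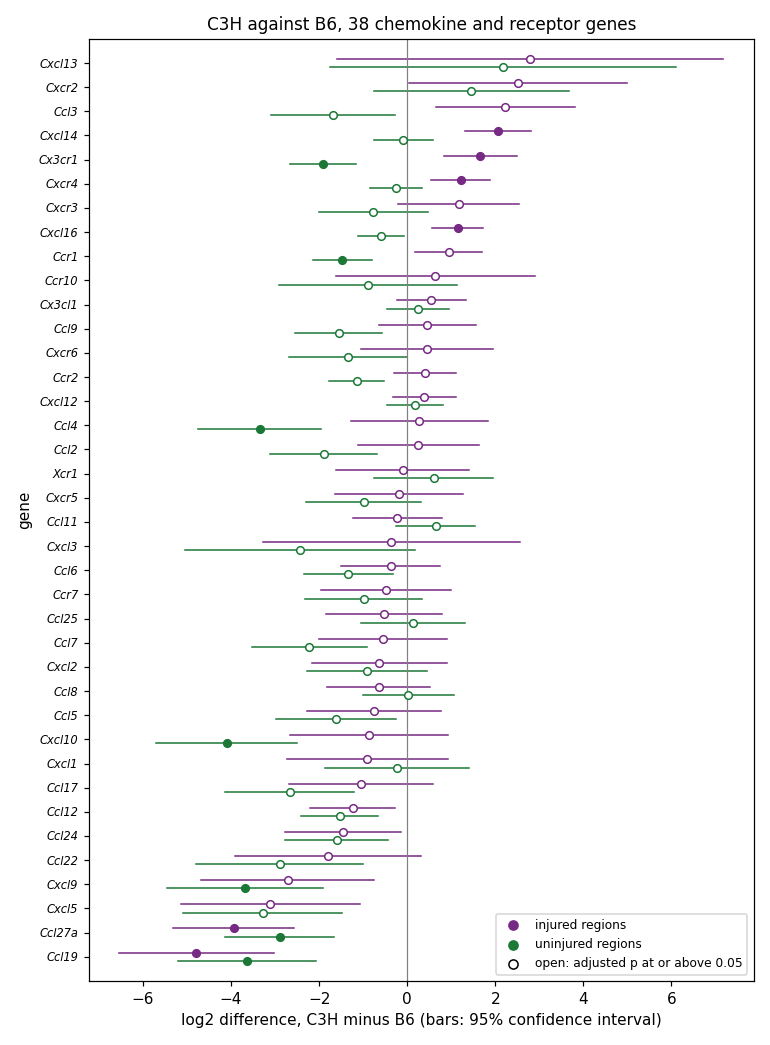
Log2 difference C3H minus B6 for 38 of the tested members in injured (upper mark of each row) and uninjured regions (lower mark), ordered by the injured difference, with 95% confidence intervals and filled points for an adjusted p under 0.05. Ccl19 and Ccl27a are lower in C3H in both regions, and Cx3cr1 is higher in injured and lower in uninjured regions. The Ccl19 value in injured regions rests on 1 C3H read and the Cxcl3 value in uninjured regions on 0, so that neither is a measured fold.

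In the genome many members stand in clusters, and calls for injury in C3H are given by cluster. In the chromosome 11 cluster of Ccl2, Ccl7, Ccl11, Ccl12 and Ccl8, 1 rose, 1 fell and 3 did not pass. In the second chromosome 11 cluster Ccl3, Ccl4 and Ccl9 rose, while Ccl5 and Ccl6 did not pass, with all 5 estimates positive. Among the receptor genes clustered on chromosome 9, Ccr1, Ccr2 and Cxcr6 rose, while Xcr1 between them was at 0.10 and Ccr1l1 was not tested. On chromosome 8 Cx3cl1 and Ccl17 rose, and Ccl22 beside them did not pass. On chromosome 5 the neutrophil attractants Cxcl1, Cxcl2, Cxcl3 and Cxcl5 gave no call.

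Genes that carry the receptor signal were taken from a list of 61, of which 59 were tested. In C3H 29 rose and 2 fell, against 15.3% and 15.4% of all genes, with a median of 0.72 against 0.01 over all genes. The largest increases were in Rgs1, which shuts off G-protein signals of chemokine receptors (6.63, SE 0.64, adjusted p = 5.34e-05), Pik3r5, a regulatory subunit of PI3K gamma (4.44, SE 0.46, adjusted p = 7.75e-05), the Src-family kinase Fgr (3.70, SE 0.46, adjusted p = 0.000225) and the focal adhesion-related kinase Ptk2b (3.68, SE 0.31, adjusted p = 2.64e-05). Among those that fell was Rasgrp2, an exchange factor for Rap1 (-0.90, SE 0.29, adjusted p = 0.0323). In B6 none of the 59 passed (median 0.36), and the interaction passed for 8, each greater in C3H, against 1.5% of all genes. Of 15 tested chemokine-related genes outside the name rule, 3 rose in C3H, a share near the 15.3% of all genes: the C5a receptor gene C5ar1 (2.11, SE 0.43, adjusted p = 0.00376), Cd74 (1.67, SE 0.28, adjusted p = 0.00139) and Cklf (1.42, SE 0.44, adjusted p = 0.0291).

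Most macrophage markers moved with the receptors. Of 21 macrophage and monocyte markers 18 rose in C3H (median 2.79), against 15.3% of all genes, and 0 passed in B6 (median 0.71). The 3 that did not pass in C3H were Mrc1 (1.11, adjusted p = 0.0530), Cd163 (-0.01, 0.997) and Ly6c2 (-0.74, 0.269). Their summed level was 122429 and 219779 in C3H injured and 20042, 32877 and 18237 in C3H uninjured libraries. In B6 it was 60925, 76211 and 52569 in injured and 47456, 47661 and 31561 in uninjured libraries. No marker was at 0 in any library. All 3 C3H uninjured sums were among the lowest 4 of the 11. Between strains, 8 of the 21 markers were higher in C3H injured than in B6 injured regions, against 3.72% of all genes. In uninjured regions 2 were lower in C3H than in B6, against 1.79% of all genes. The part of these markers in the receptor results was not tested.

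Most T and NK cell markers did not pass. Of 14 tested T and NK cell markers 1 rose in C3H, and their sum of 1197 and 2013 in C3H injured against 113, 137 and 214 in C3H uninjured libraries was mostly Il7r (962 and 1822 in C3H injured libraries). Cd3e had 13.8 and 24.03 in C3H injured and 11.9, 38.7 and 11.5 in C3H uninjured libraries, beside the increases of Cxcr3 and Cxcr6. Siglecf was the 1 eosinophil marker of 6 in the table, with 45.0 and 37.5 in C3H injured and 3.96, 2.09 and 3.55 in C3H uninjured libraries, beside the decrease of Ccl11. Fibroblast markers rose in 7 of 10 (median 1.68) and cardiomyocyte markers fell in 10 of 12 (median -1.56) in C3H. Of all genes 15.3% rose and 15.4% fell in that comparison. The part of these in the results above was not tested.

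**Figure D5:**
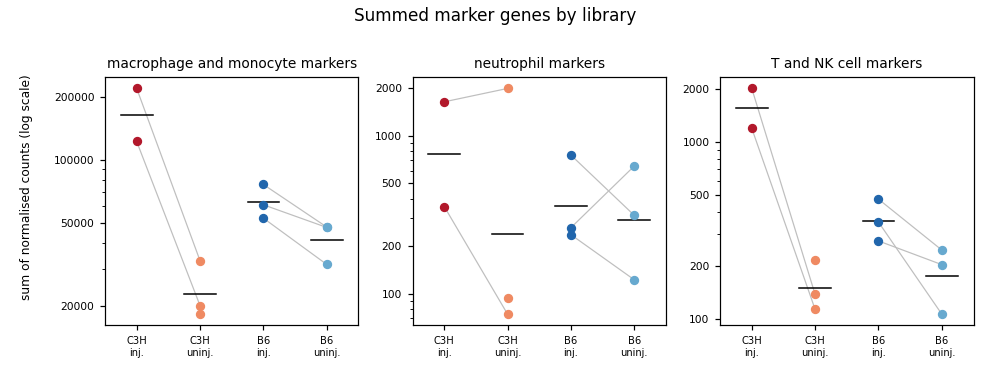
Sum of normalised counts (log axis) of macrophage and monocyte, neutrophil, and T and NK cell markers in each library, by group, with means on the log scale as bars and grey lines between both regions of an animal. Macrophage sums are highest in the C3H injured libraries, and the neutrophil sum is high in both regions of C3H animal 2.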

How the data were processed

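RNA sequencing libraries came from both heart regions of 5 animals and from 1 region of a sixth, in 4 groups by strain and region. Reads were aligned with TopHat2 2.0.11 to build mm9, counted with HTSeq 0.6.1 and normalised with DESeq, per the submitters' processing notes. The sources used here do not name the gene annotation, the strand setting or the treatment of shared reads, and mm9 is the genome of the B6 strain. The deposited signal is a normalised count, the reads of a gene divided by 1 size factor per library, and every value was a whole multiple of that library's step (tolerance 1e-06), from which reads were recovered.

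Genes with at least 10 normalised counts in at least 2 libraries were tested (14751 of 15274) on log2(normalised count + 1) with limma 3.58.1 in R 4.3.3: 4 group means, moderated spread with trend, two-sided p adjusted by Benjamini-Hochberg over all tested genes, 7 residual degrees of freedom, 5 comparisons. Fold changes on this scale are understated for low genes. Both regions of an animal are paired by the labels, and the residuals of the pairs correlated at 0.305 and 0.575 in C3H and 0.276, -0.0140 and 0.524 in B6. Alternatives were other pseudocounts, filters and normalization, the groups compared alone, the animal as a block, edgeR 4.0.16 and DESeq2 1.42.0 on the recovered reads, and each library left out. On recovered reads edgeR called 4539 genes for injury in C3H, 2 in B6, 233 for the strain difference of the injury effect, 1101 between injured and 407 between uninjured regions. The limma fit of group means was tested on simulated counts with changes set in the C3H injured group. Those libraries were drawn independently, without the pairing by animal, and the other fits were not tested in this way. Changes were set only in genes with a mean of at least 50, and all genes were drawn with the same dispersion. Members that are low or that spread more widely are not covered by this simulation. Members, lists and alternatives were chosen with earlier results of these data known. Any member could be named, with values in every library for those past the threshold and their ligand or receptor partners. From the lists of signal and chemokine-related genes outside the family, genes that passed with the 4 largest changes in each direction were named. Marker genes were named beside a result, and so were the 3 macrophage and monocyte markers that did not pass in C3H. Counts cover all members and list genes tested, of which a few are not reported here by name.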

Additional observations from a re-analysis of the deposited data

Results flagged for a closer look

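The difference between the injury effect in C3H and that in B6 passed its own test, an interaction term in limma, for the members listed here. The log2 difference was 3.57 for Cx3cr1, 2.41 for Ccr1, 2.15 for Cxcl14 and 1.73 for Cxcl16, each greater in C3H. The change was positive in both C3H animals for all 4 genes. In B6 it was positive in 3 of 3 animals for Cxcl14 and Cxcl16, in 2 of 3 for Cx3cr1 and in 1 of 3 for Ccr1. Macrophage and monocyte markers moved with these genes, 8 of 21 passing the same interaction test as greater in C3H, against 1.5% of all genes. The part of these markers in the result was not tested.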

How the results depend on the processing

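Counts of members called for injury in C3H (17) ranged from 10 to 18 when 1 library was left out. For injury in B6 the count (0) was 0 without each library, and 1 in DESeq2. For the strain difference of the injury effect (5) it ranged from 0 to 6 without 1 library and was 10 in DESeq2. Between injured regions (6) it ranged from 0 to 9 without 1 library, and was 10 with the groups compared alone (1562 of 14751 genes) and 10 in DESeq2. Between uninjured regions (8) it ranged from 1 to 16 without 1 library. It was 5 with a mean of at least 50 (313 of 12015 genes), 3 with the groups compared alone and 16 in DESeq2. Counts over all genes moved too. The ranges of members above include the fits with a lone C3H injured library. Those fits gave the lowest member counts for injury in C3H, for the strain difference of the injury effect and between injured regions. In them the counts over all genes fell as well. The ranges over all genes that follow leave those fits out, so they are not like the ranges of members. With both C3H injured libraries kept, leaving out 1 library gave 3133 to 5015 genes for injury in C3H, beside 4527 with every library. For the strain difference of the injury effect it gave 83 to 272, beside 231. Between injured regions it gave 334 to 1322, beside 1042, and between uninjured regions 213 to 788, beside 458. The cause of these moves was not tested beyond the fewer samples or genes that an alternative itself leaves.

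With the replicate block (animal), members called for the strain difference of the injury effect numbered 13 with a fixed and 12 with a random block. For injury in C3H the count was 19 with either block, 48.7% of members, against 34.9% of all genes with the fixed and 41.8% with the random block. For injury in B6 it was 0. With the random block it was 7 between injured regions, against 6.15% of all genes, and 11 between uninjured regions, against 3.04%. Over 36 results of single genes and 727 alternative values, 635 kept their side of the threshold, 92 lost it and 0 changed sign.

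C3H injured had 2 libraries, so that leaving out 1 left a lone library whose spread is taken from the other groups. Strain and sex cannot be told apart. Members with a few reads, such as Ccl17, Ccl19 and Cxcl3, are limited by depth.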

Other observations

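Markers of further cell types were counted in the C3H injury comparison, in which 15.3% of all genes rose and 15.4% fell. Of 8 dendritic cell markers 2 rose, of 10 endothelial markers 2 fell, of 4 lymphatic endothelial markers 1 rose, and of 6 B cell, 5 mast cell, 4 atrial, 8 epicardial and mesothelial and 2 erythroid markers none passed. In B6 no marker of these lists passed. The dendritic list shares Xcr1 and Ccr7 with the members.

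Ccl19 and Ccl27a were set beside genes near them on chromosome 4, chosen after their values were seen. Il11ra1, next to Ccl27a, had 1313 and 1302 normalised counts in C3H injured libraries and 1302, 1651 and 1918 in C3H uninjured ones, against 2688, 2203 and 1316 in B6 injured and 2641, 2511 and 1551 in B6 uninjured ones. Its difference between the strains was -0.44 in uninjured regions (adjusted p = 0.499) and -0.60 in injured regions (adjusted p = 0.280). RefSeq also lists Il11ra2 on chromosome 4. How any reads shared between Il11ra1 and Il11ra2 were counted is not stated in the sources used here. Of 10 nearby genes looked up, Dnajb5 passed in uninjured regions, where it was higher in C3H (0.84, adjusted p = 0.0238), and none passed in injured regions. These were not all the neighbours that RefSeq lists. The nearest of them to Ccl19 was Phf24, 4 genes away, so genes directly beside Ccl19 were not examined.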
